A study of Mus musculus with 2 samples.

Results

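Peaks of N6-methyladenosine (m6A) in long non-coding RNA (lncRNA) genes, away from any protein-coding gene, are described here for the mouse uterus. A peak is a stretch where RNA bound by an anti-m6A antibody was over-represented against the background. A peak was a member where its summit, the point of highest pileup, lay inside the annotated span of a lncRNA gene on an autosome and inside no protein-coding span. This held for 1197 of the 37173 autosomal peaks (3.22%), in a deposited list of 38366 peaks. Another 1351 autosomal summits lay in a lncRNA span and a protein-coding span at once and were left out. The members are set beside the 32062 autosomal summits in protein-coding spans and the 3128 in no annotated gene.

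The m6A library came from whole uterus of wild-type C57BL/6 mice, as an equal pool of gestation day 4 and gestation day 8 that was precipitated with the antibody. The input library came from whole uterus of the same strain, no antibody was used, and pooling is not mentioned in its label. Each group held 1 library, so no value has a replicate error and no test between groups was possible. Whole uterus mixes stroma, epithelium, muscle and blood vessels, and fewer cells of a type cannot be told apart from less RNA per cell. All 38366 peak names mention day 8 and none names day 4. At least 1 peak lay in each of 12 genes chosen as a check of the tissue, among them the progesterone receptor gene Pgr, the smooth muscle gene Acta2 and the epithelial gene Krt8. A summit lay in 57.2% of all autosomal protein-coding genes, and a peak shows only that the transcript was sampled.

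The mark m6A is laid down on RNA by a methyltransferase complex around Mettl3 and Mettl14, mostly within the short consensus called DRACH, and is read by proteins that alter splicing, export, translation or decay. In mRNAs it gathers near the stop codon and in long internal exons. LncRNAs have no such landmark, since they are not translated into long proteins, and many stay in the nucleus. Several well known ones act close to the gene next to them, such as Airn, which silences Igf2r on the paternal chromosome.

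Sequence was at hand only for windows around gene starts, each of 300 bases, with 250 before and 50 after the start (RefSeq, GRCm38.p6). Among the members, 69 peaks overlapped such a window and 18 had the summit in one, 7 in the window of their own lncRNA and 12 in that of another gene. The windows printed are that of the gene with the highest peak and those of the 3 highest summits that fell inside a window. Capitals mark 4 spellings of the DRACH consensus on the printed strand. These are GGACT, found on the gene's own strand in 26.1% of all 32851 windows, then GAACT, found in 24.8%, AGACT, found in 26.8%, and GGACA, found in 28.2%. The first window is that of B330016D10Rik, at chr4:141545912-141546211 on the plus strand. The second is that of Ttc17, at chr2:94406640-94406939, printed on the plus strand, which is the strand of the lncRNA 2810002D19Rik. The next is that of Brip1, at chr11:86201144-86201443 on the minus strand, which carries a peak of the lncRNA Brip1os. The last is that of Trmt61b, at chr17:71598232-71598531 on the minus strand, a gene that the table lists as lncRNA.
B330016D10Rik: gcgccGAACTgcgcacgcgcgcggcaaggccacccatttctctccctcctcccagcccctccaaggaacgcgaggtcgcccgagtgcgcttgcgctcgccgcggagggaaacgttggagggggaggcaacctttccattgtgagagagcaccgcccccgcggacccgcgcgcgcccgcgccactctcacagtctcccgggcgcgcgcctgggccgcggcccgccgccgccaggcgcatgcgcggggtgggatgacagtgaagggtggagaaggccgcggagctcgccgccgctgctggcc
Ttc17: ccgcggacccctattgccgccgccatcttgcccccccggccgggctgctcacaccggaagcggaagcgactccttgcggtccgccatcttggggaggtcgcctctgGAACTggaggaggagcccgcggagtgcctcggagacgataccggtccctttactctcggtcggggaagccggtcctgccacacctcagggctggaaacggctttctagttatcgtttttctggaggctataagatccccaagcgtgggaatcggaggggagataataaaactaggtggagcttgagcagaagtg
Brip1: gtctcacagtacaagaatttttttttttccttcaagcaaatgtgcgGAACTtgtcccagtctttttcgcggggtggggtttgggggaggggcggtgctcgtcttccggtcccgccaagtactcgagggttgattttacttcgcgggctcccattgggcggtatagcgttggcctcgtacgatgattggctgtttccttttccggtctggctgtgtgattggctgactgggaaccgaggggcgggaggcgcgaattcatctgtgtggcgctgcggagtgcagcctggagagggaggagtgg
Trmt61b: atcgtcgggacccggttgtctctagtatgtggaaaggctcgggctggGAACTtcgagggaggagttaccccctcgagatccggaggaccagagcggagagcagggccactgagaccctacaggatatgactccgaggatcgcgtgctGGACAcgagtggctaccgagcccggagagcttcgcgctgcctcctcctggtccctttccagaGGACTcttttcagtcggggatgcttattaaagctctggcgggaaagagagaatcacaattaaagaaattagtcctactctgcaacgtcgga

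The peak of B330016D10Rik covered 151 bases of its window and none of these held a match, while its summit lay beyond the window. The peak of 2810002D19Rik covered 244 bases of the Ttc17 window with 1 match, and had 12.8-fold enrichment (95% interval 8.84 to 18.04). The peak of Brip1os covered 144 bases of the Brip1 window with 1 match, at 10.2-fold (6.26 to 15.8). The strand of Brip1os is not in the table and its name places it opposite Brip1, so this match is on the strand of Brip1 and not shown to be in the lncRNA. The peak of Trmt61b covered all 300 bases with 3 matches, at 9.05-fold (6.41 to 12.4). At least 1 of the 4 spellings stood on the gene's own strand in 70.2% of these windows, and on either strand in 90.6%, so that a match sets no window apart. None of the spellings contains another, but GGACA can share its last base with AGACT. A match is a description of the letters only.

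One microRNA hairpin lay inside a member peak, that of Mir6363 at chr16:50727132-50727245 on the plus strand, within the lncRNA Dubr. Its mature sequence is shown because its hairpin is the only one wholly inside a member peak, while another hairpin overlaps a member peak in part, with the seed, bases 2 to 8, in capitals.
mmu-miR-6363: uGUAGACUggacuguccucaaa
The Dubr peak around it, chr16:50726595-50728347, was 1753 bases wide, with 121 fragments and 9.77-fold enrichment (8.12 to 11.7), and its summit at 50727932 lay outside the hairpin.

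Peaks in lncRNA genes were few for the number of genes. A member summit lay in 764 of 12322 autosomal lncRNA genes (6.2%), against a summit in 11749 of 20554 protein-coding genes (57.2%). Only summits outside protein-coding spans count for lncRNA genes, while any summit in the span counts for a protein-coding gene. Of the 9632 lncRNA genes with any base outside protein-coding spans, 7.93% carried a member (exact Clopper-Pearson 95% interval 7.40 to 8.49%). The territory of lncRNA spans outside protein-coding ones covered 170.7 Mb and held 7.01 members per Mb (6.62 to 7.42), against 32.6 peaks per Mb of protein-coding span. Intervals throughout cover counting error only.

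The share with a peak grew with the length of the span in both kinds of gene. It was 4.81% of lncRNA genes under 2 kb, 6.22% from 2 to 10 kb, 8.59% from 10 to 50 kb and 17.5% at 50 kb or more. For protein-coding genes it was 13.3%, 49.7%, 63.0% and 75.5% in the same order. The lncRNA share was the lower one in each length class. In these shares, and in those by transcript and by name below, only lncRNA genes with any base outside protein-coding spans are counted.

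LncRNA genes with a curated RefSeq transcript carried a member in 395 of 2672 cases (14.8%, 13.5 to 16.2%), against 369 of 6960 (5.30%, 4.79 to 5.85%) for those known from computed gene models only. The difference held in each length class, at 27.7% of curated genes against 11.7% of model genes at 50 kb or more. The peaks themselves were alike in height, with a median of 6.16-fold in curated and 6.07-fold in model genes. By name, genes called after a neighbour on the opposite strand (ending in os) carried a member in 33 of 127 cases (26.0%, 18.6 to 34.5%). Genes with any other name had a member in 62 of 242 cases (25.6%, 20.2 to 31.6%), a class that also holds clone or accession names such as AI506816. Names ending in Rik, or made of LOC or Gm and a number, had lower shares, at 14.1% of Rik genes, 11.0% of LOC genes and 5.84% of 7654 Gm genes. The local background under the members, which follows how much RNA was sampled there, had a median of 1.24 in curated and 0.865 in model genes, and its part in these shares was not tested.

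**Figure D1:**
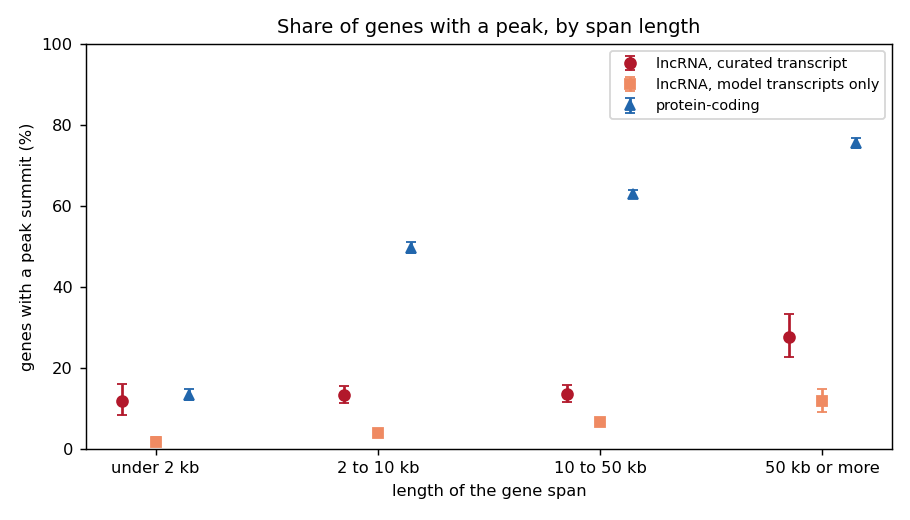
Share of genes with a peak summit (percent, y axis) by length of the gene span (x axis), for lncRNA genes with a curated transcript, lncRNA genes with model transcripts only, and protein-coding genes. Bars are exact 95% intervals. At 50 kb or more, 27.7% of curated lncRNA genes, 11.7% of model lncRNA genes and 75.5% of protein-coding genes had a summit. LncRNA genes are those with any base outside protein-coding spans and are counted by members, protein-coding genes by any summit.

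The members rested on far fewer fragments than peaks in protein-coding genes, at nearly the same fold. Fold enrichment is the pileup in the m6A library over the local background at the summit, with 1 added to both, as the authors' peak caller gave it. Its median was 6.16 in members (quartiles 4.79 and 8.07, range 1.82 to 42.4), 6.10 in protein-coding peaks and 6.16 in peaks outside genes. At least 10-fold enrichment was reached by 175 members (14.6%, 12.7 to 16.7%), against 14.7% of protein-coding peaks, 13.4% of peaks outside genes and 14.8% of all autosomal peaks. At least 20-fold was reached by 15 members (1.25%), against 372 protein-coding peaks (1.16%).

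The number of m6A fragments at the summit, recovered from the deposited fold and p-value, had a median of 14 in members (quartiles 9 and 25), 32 in protein-coding peaks and 12 outside genes. Fewer than 10 fragments stood under 350 members (29.2%, 26.7 to 31.9%), against 7.13% of protein-coding peaks. The local background had a median of 1.24 scaled fragments in members, 3.95 in protein-coding peaks and 0.741 outside genes. It sat at the genome-wide level of 0.462, the lowest common value, in 254 members (21.2%, 18.9 to 23.6%), against 4.20% of protein-coding peaks and 30.5% of peaks outside genes. In depth and background the members thus lay between both other kinds, closer to peaks outside genes.

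Since the fold depends on the background, the members were also set beside peaks of like background. At the genome-wide level the median fold was 6.16 in both members and protein-coding peaks, each at a median of 8 fragments. Above that level and up to 1 it was 6.77 in members and 7.36 in protein-coding peaks. From 1 to 3 it was 6.27 in members and 7.20 in protein-coding peaks. From 3 to 10 it was 5.38 in members and 5.95 in protein-coding peaks, and from 10 upward 3.87 in 53 members and 4.23 in protein-coding peaks. In each class above the genome-wide level members had a lower median than protein-coding peaks, and the quartiles of both kinds overlapped. Peaks outside genes had medians of 6.80, 6.26, 5.38 and 3.72 in these classes, in the same order. These lie near those of members, so the lower median is not particular to members.

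**Figure D2:**
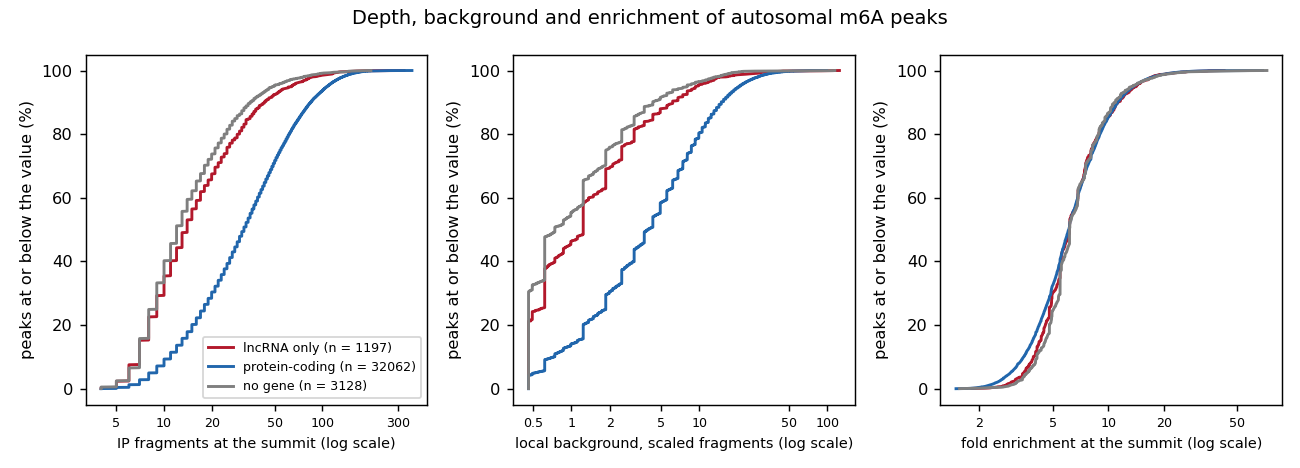
Cumulative share of autosomal peaks (percent, y axes) by fragments in the m6A library at the summit, by local background in scaled fragments and by fold enrichment (x axes, log scales), for lncRNA-only peaks, protein-coding peaks and peaks in no gene. The curves part for fragments, with medians of 14, 32 and 12, and for background, and nearly coincide for fold, with medians of 6.16, 6.10 and 6.16.

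Member peaks were a little narrower. The median width was 312 bases in members (quartiles 214 and 494), 342.5 in protein-coding peaks and 264 outside genes. Exactly 200 bases, the narrowest width listed, was found in 138 members (11.5%), against 5.62% of protein-coding peaks and 14.3% of peaks outside genes. At least 2000 bases was found in 9 members (0.752%), against 1.95% of protein-coding peaks and 0.831% of peaks outside genes. The widest members lay in Malat1, at 2672 bases, and in Neat1, at 2332 bases.

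Along the span, members were spread more evenly than peaks in protein-coding genes. Of the 1151 members in exactly 1 lncRNA span, the strand of the gene was known for 918. When each span was divided into 5 equal parts from 5′ to 3′, the parts held 19.6%, 14.3%, 18.7%, 18.6% and 28.8% of members. The last part held 28.8% of members (25.8 to 31.8%), against 41.9% of protein-coding summits (41.3 to 42.5%). In spans of 10 kb or more it held 27.7% of 639 members, against 43.3% of 21278 protein-coding summits. The median position was 0.569 of the way along lncRNA spans and 0.709 along protein-coding spans. Within 1000 bases of the 5′ end lay 113 members (12.3%, 10.3 to 14.6%), against 10.2% of protein-coding summits. Within 1000 bases of the 3′ end lay 162 members (17.6%, 15.2 to 20.3%), against 15.3% of protein-coding summits. A window of 1000 bases takes up more of a shorter span, so these shares are not alike in scale. The median span was 14290 bases in lncRNA genes with a member and 25116 in protein-coding genes with a summit. Stretches of a lncRNA span that overlap a protein-coding span could hold no member. Exons were not analysed here, so a summit in an intron is not separated from one in an exon.

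**Figure D3:**
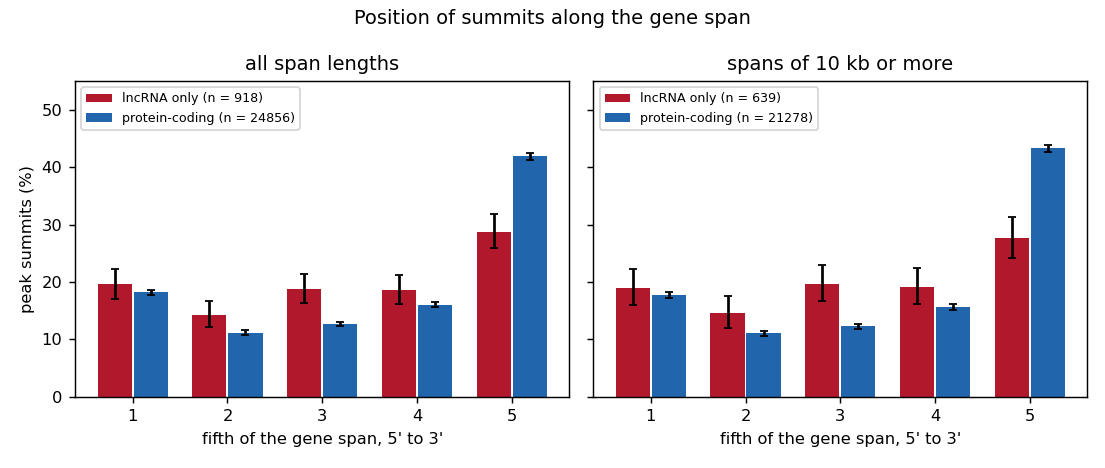
Share of peak summits (percent, y axis) in each of 5 equal parts of the gene span from 5′ to 3′ (x axis), for lncRNA-only and protein-coding peaks, over all spans and over spans of 10 kb or more. Bars are exact 95% intervals. The last part held 28.8% of members and 41.9% of protein-coding summits over all spans.

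Members lay near protein-coding genes more often than the territory they could fall in, and mostly before the gene's start. A protein-coding span lay within 5000 bases of 293 members (24.5%, 22.1 to 27.0%), while 7.91% of the lncRNA-only territory lies that close. Of the 225 such members whose nearest gene has a known strand, 180 lay upstream of that gene (80.0%, 74.2 to 85.0%). Upstream bases made up 65.5% of the lncRNA-only bases upstream or downstream, within 5000 bases, of any gene of known strand. A base upstream of one gene and downstream of another counts on both sides there, while members were assigned to the nearest gene only. Where both strands were known, 138 of 186 members lay upstream of the nearest gene in a lncRNA on the opposite strand (74.2%, 67.3 to 80.3%), where 60.8% of the nearby lncRNA-only bases with both strands known lie. Another 30 lay downstream on the opposite strand (16.1%, 11.2 to 22.2%), where 27.6% of these bases lie. On the same strand as the nearest gene, 15 lay upstream (8.06%) and 3 downstream (1.61%, 0.334 to 4.64%), where 7.53% and 4.05% of the bases lie. The median fold was 6.16 in members within 5000 bases (5.82 to 6.71) and 6.16 in those farther away (6.01 to 6.18).

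The highest peaks stood over a low background, between 0.462 and 1.25 scaled fragments in the 12 genes named by height. Ranking by fold favours a low background, and the median over all members was 1.24, so this range is not particular to these genes. The highest was in B330016D10Rik, a gene of 2152 bases whose start window is printed above, at chr4:141546061-141546459. It had 61 fragments over a background of 0.462, which is 42.4-fold (32.6 to 54.3), with its summit 86 bases from the 5′ end. The summit lay 7604 bases upstream of its nearest protein-coding neighbour, Spen, which runs on the opposite strand. Gm40376 had 77 fragments over 1.24, which is 34.9-fold (27.6 to 43.5), in a peak 2048 bases wide at chr12:32751363-32753410. Gm35028, next to the transcription factor gene Prdm1, had 76 fragments over 1.25, which is 34.3-fold (27.1 to 42.8), at chr10:44424632-44425883. Gm12576 had 48 fragments over 0.618, which is 30.3-fold (22.5 to 40.0). Among peaks with the summit in exactly 1 annotated gene, the next 8 genes were 2700089I24Rik, Gm52718, 4930440I19Rik, B230209E15Rik, Gm30417, 4930578G10Rik, Gm40841 and Gm34755. Their highest peaks lay between 26.7-fold and 20.5-fold with 29 to 45 fragments, and their intervals overlap each other.

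Members in well known lncRNAs had more fragments and lower folds than the other members. Over 5 lists of such genes, 34 of 77 genes (44.2%, 32.8 to 55.9%) held a member, beside 6.2% of all autosomal lncRNA genes. Among lncRNA genes with any base outside protein-coding spans, the share was 14.8% with a curated transcript and 25.6% in the class of other names. The lists were chosen with earlier results of these data known, so their higher share is a description only. The 84 members in listed genes had a median of 39 fragments, a background of 8.03 and 4.72-fold enrichment, against 13 fragments, 1.11 and 6.16-fold in the other 1113. Of these 84, 21 lay in Airn and 11 in Wt1os, so that these genes weigh on the pooled medians. Their own medians were 43 fragments, 8.03 and 4.76-fold in Airn, and 37 fragments, 8.0 and 4.78-fold in Wt1os. Taking the highest peak of each gene, the median fold was 5.49 over the listed genes and 6.84 over all lncRNA genes with a member, and 7 of the 34 reached 10-fold, beside 169 of 764 (22.1%).

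Of 18 nuclear or broadly expressed lncRNAs, 11 had a member. Oip5os1 (Cyrano), known for triggering the decay of the microRNA miR-7, had the highest, with 75 fragments and 14.6-fold enrichment (11.5 to 18.3). Its other peak had 116 fragments and 8.60-fold enrichment. Chaserr, which restrains its neighbour Chd2, had 35 fragments and 10.96-fold (7.73 to 15.1) at 162 bases from its 5′ end, and a lower peak at 2.82-fold. Cerox1, which regulates subunits of mitochondrial complex I, had 8 fragments and 6.16-fold (3.05 to 11.5), so its interval spans that of Norad.

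Norad, which binds Pumilio proteins, had 186 fragments and 5.87-fold (5.06 to 6.77), at a summit that also lies in the span of Gm14170. Malat1, an abundant RNA of nuclear speckles, had the most fragments of any member, 329, over a background of 124.1, which is 2.64-fold (2.36 to 2.94). Its other peak had 165 fragments and 1.82-fold enrichment, the lowest fold of all members. Neat1, the scaffold of paraspeckles and needed in mice for a working corpus luteum, had 155 fragments at 3.39-fold (2.88 to 3.96) and 106 at 2.42-fold. Both nuclear RNAs had low folds over the highest backgrounds named here, at 43.2 or more scaled fragments.

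Of 10 imprinted lncRNAs, which are transcribed from only the maternal or the paternal chromosome, 5 had a member, namely Airn, H19, Meg3, Rian and Snhg14. Airn reached 12.2-fold (9.45 to 15.5) with 64 fragments. Meg3, expressed from the maternal chromosome, had 23 fragments at 10.7-fold (6.97 to 15.9) and 12 at 5.82-fold. H19, a maternally expressed RNA that hosts miR-675, had 72 fragments over 11.7, which is 5.73-fold (4.50 to 7.20). Snhg14 had 14 fragments at 4.32-fold.

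Of 23 snoRNA hosts, whose introns release small nucleolar RNAs, 10 had a member. Besides Meg3, the highest was Snhg12, with 49 fragments and 10.6-fold enrichment (7.92 to 13.98) at 195 bases from its 3′ end. Snhg18 had 3 peaks, the highest with 91 fragments at 8.0-fold (6.46 to 9.80), and Snhg15 had 2, at 6.23-fold and 5.55-fold. Of 15 miRNA hosts, 6 had a member. Mir99ahg, host of miR-99a and let-7c, had 15 fragments at 10.7-fold (6.29 to 17.2), 94 bases from the 5′ end of a span of 229101 bases. Mir22hg, host of miR-22, had 76 fragments at 5.51-fold (4.36 to 6.88), and Mir100hg had 9 at 5.03-fold and 36 at 2.91-fold.

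Of 20 lncRNAs in Hox clusters or beside mesoderm transcription factors, 8 had a member. Foxd2os had 21 fragments at 11.1-fold (7.04 to 16.7) and 13 at 8.04-fold. Fendrr, needed for heart and body wall mesoderm in mouse embryos, had 3 peaks from 5.56-fold to 9.40-fold (5.91 to 14.3 for the highest). Wt1os is described below, and Tbx3os1 had 11 fragments at 7.42-fold. Next to genes that act in the uterus, and chosen after their values were seen, Hoxa11os had 37 fragments at 5.01-fold (3.57 to 6.86) and 98 at 3.51-fold. Hand2os1, upstream of the progesterone-induced stromal factor gene Hand2, had 95 fragments over 29.6 at 3.13-fold (2.54 to 3.82) and 66 at 2.14-fold. Hotair, Hottip, Hotairm1 and Haglr, from the same list, were among those with no member. A gene without a member can still hold a summit inside a protein-coding span, and 10 of these 20 genes held a summit of any kind.

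**Figure D4:**
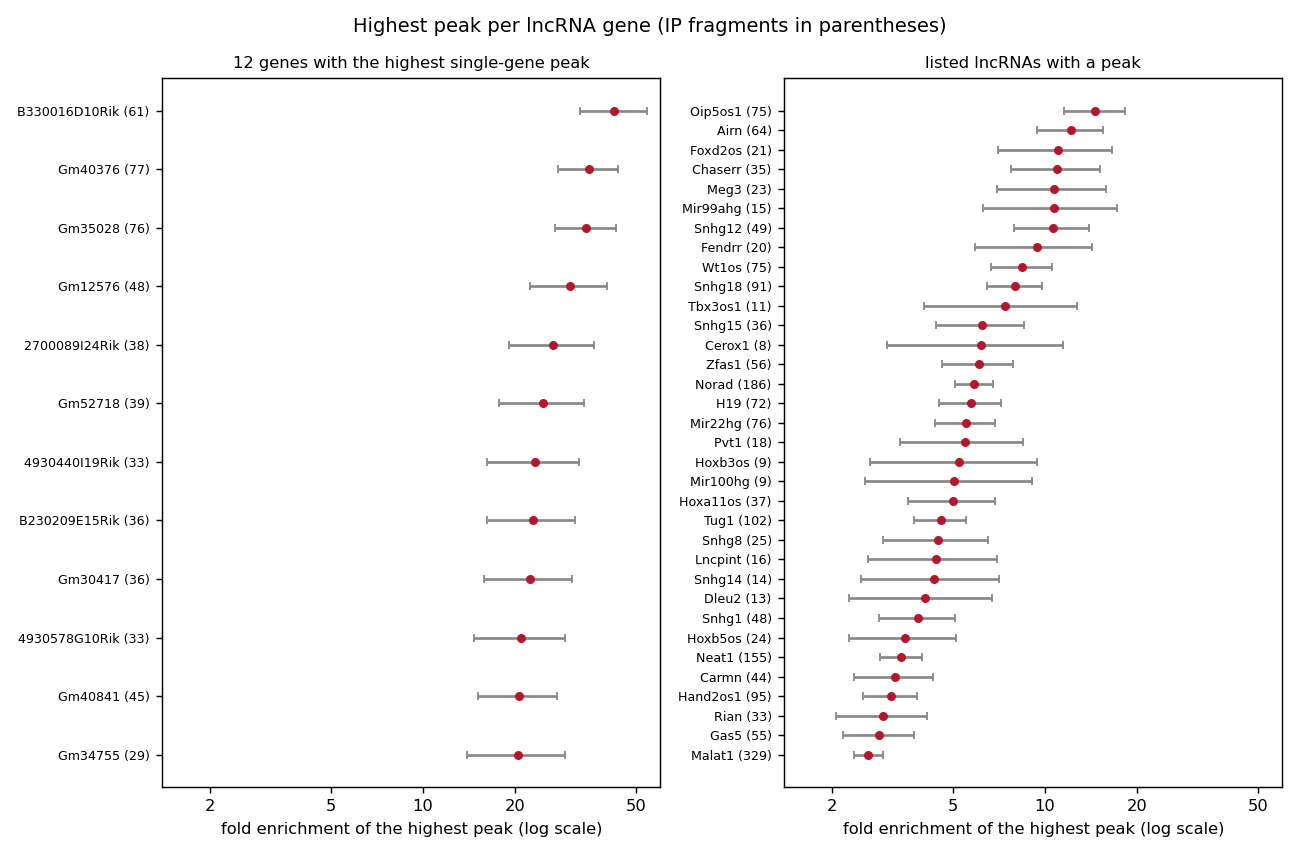
Fold enrichment of the highest peak (x axes, log scale) of the 12 genes with the highest single-gene peaks and of the 34 listed lncRNAs with a member, with fragments in parentheses. Bars are exact 95% Poisson intervals on the fragments with the background held fixed. Folds run from 42.4 down to 20.5 on one side and from 14.6 for Oip5os1 down to 2.64 for Malat1 on the other.

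Most genes held a single peak, and a few held many. Of the 764 genes, 524 (68.6%) held 1 member and 27 held 5 or more, with a median of 1, against a median of 2 peaks in protein-coding genes. Where a gene held several, neighbouring summits were a median of 1873 bases apart (quartiles 903 and 6991, 481 pairs).

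Airn held the most, 21 members among the 26 peaks in its span, the other 5 being in protein-coding spans. In a span of 118574 bases, Igf2r takes up the stretch to 28395 bases from the 5′ end and Mas1 that from 97530 bases on, which leaves 69134 bases where a member could lie. Members ran from 33602 to 93762 bases from the 5′ end. The other 5 summits lay at 296, 27418, 28151, 100916 and 112066 bases, inside the Igf2r or Mas1 span. Since the list carries no strand, these 5 cannot be assigned to Airn or to the protein-coding gene. The fragments of the 21 members ran from 9 to 80 with a median of 43, and their folds from 2.85 to 12.2 with a median of 4.76. The highest, at chr17:12826912-12828028, lay 86371 bases from the 5′ end. Airn also weighs on its chromosome, since chromosome 17 held 18.2 members per Mb of lncRNA-only territory, the highest of the autosomes, and 14.4 without the peaks and bases of Airn. Chromosome 9 held the fewest, 4.32 per Mb.

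Wt1os, on the opposite strand to the mesoderm factor gene Wt1, held 11 members along nearly its whole span of 49973 bases. Their folds ran from 2.85 to 8.44 with a median of 4.78, and their fragments from 18 to 82. Gm35190 held 13 members at 3.58-fold to 10.7-fold, on 7 to 19 fragments each. 4933406I18Rik held 11 at 4.91-fold to 8.77-fold, Gm41804 held 9 at 4.10-fold to 10.7-fold on 5 to 15 fragments, and Gm12648 held 8 at 3.86-fold to 10.7-fold over a span of 337451 bases. Airn and Wt1os had median backgrounds of 8.03 and 8.0 scaled fragments, above the 1.24 of members as a whole.

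**Figure D5:**
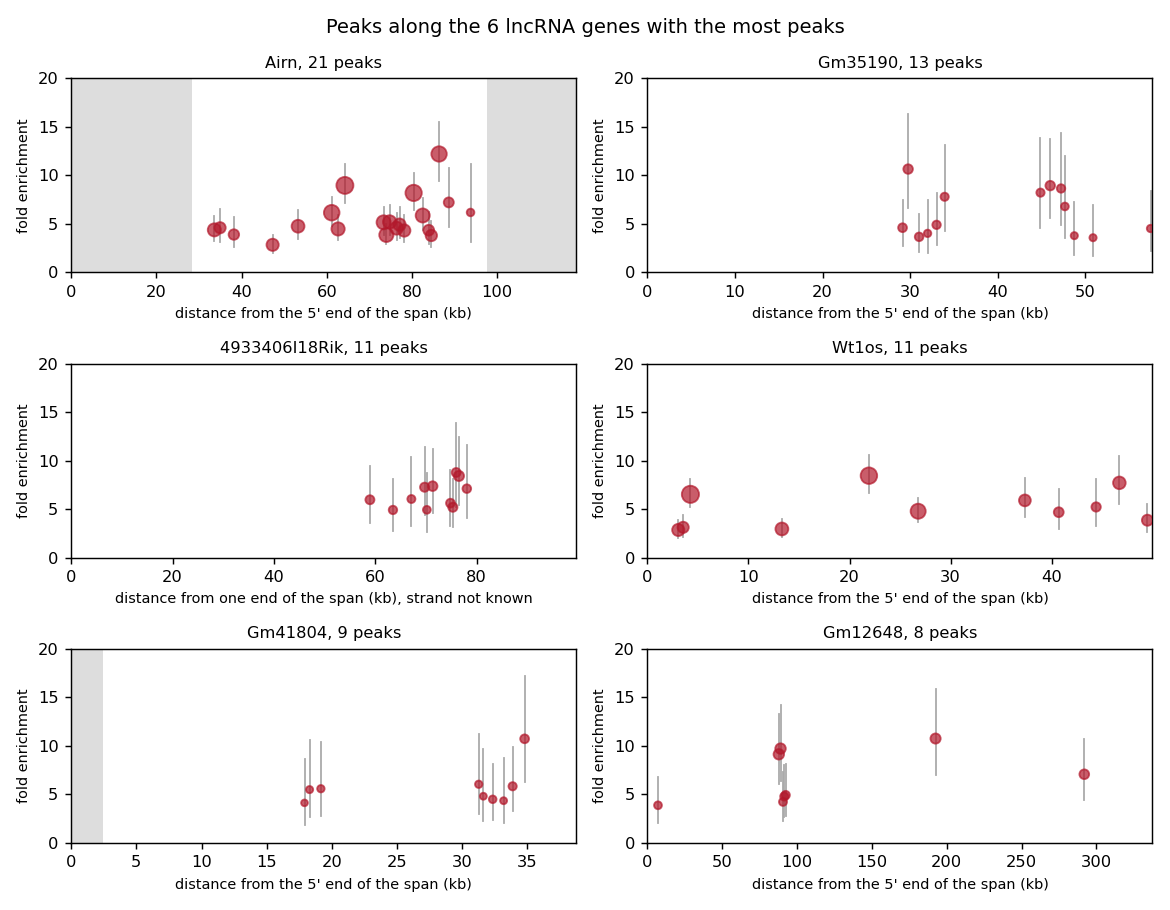
Fold enrichment (y axes) of each member by distance from the 5′ end of the span (x axes, kb) in the 6 lncRNA genes with the most members; for 4933406I18Rik the strand is not known and the distance is from one end. Dot area grows with the fragments, bars are exact 95% Poisson intervals, and grey marks protein-coding spans, where no member can lie. The 21 members of Airn lie between its grey parts, from 33602 to 93762 bases, and the 11 of Wt1os run along nearly all of its span.

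The annotation limits some members. The summit lay in exactly 1 annotated gene in 1085 members (90.6%) and in 2 or more lncRNA spans in 46. It also lay in a pseudogene span in 59 members (4.93%, 3.77 to 6.31%), against 1.07% of protein-coding summits, and reads of a pseudogene and its parent gene can be exchanged. The list carries no strand, so a lncRNA and an overlapping gene on the other strand could not be told apart.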

How the data were processed

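RNA of whole uterus was sequenced after precipitation with an anti-m6A antibody and as input, with 1 library each, grouped by the antibody label. The submitters' processing notes name HISAT2 2.2.1, MACS3 3.0.0a7 and build mm10. Their settings, filters and library totals are not stated in these sources.

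The deposited fold is a ratio of pileup to local background at the summit. The authors' −log10 p-value and their −log10 q-value (lowest 1.32) were used only within the list, to rank or filter peaks, and the deposited display score was left aside. Whole fragments and backgrounds were recovered from fold and p within 0.001 at 100% of peaks, and 1 peak had more than 1 solution. In data simulated with the same formula 100% of 2000 pairs were recovered. The simulated backgrounds did not reach down to the genome-wide level of 0.462, so recovery there was not simulated. Copies made by PCR do not count as independent, and intervals (exact Poisson with the background fixed, exact Clopper-Pearson on shares, order statistics on medians, 95% each) cover counting error only.

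Gene spans came from RefSeq GRCm38.p6, the assembly of mm10, without 369 rows outside the assembled chromosomes. Strands came from the RefSeq promoter table, which matched 596 of the 764 lncRNA genes. Coordinates are counted from 1.

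The members and lists were chosen with earlier results of these data known. Genes named are the 12 with the highest peak in exactly 1 gene and −log10 q from 5 upward, the 6 with the most members, up to 4 by fold of each list, the 3 peaks with the most fragments, the 2 widest, hosts of a hairpin inside a peak and up to 4 genes with a summit in a promoter window, by fold. Hoxa11os and Hand2os1 were picked with their values known, and further genes are named without values. Alternatives were a minimum −log10 q of 5, a minimum fold of 4, 50% overlap in place of the summit, summits in 1 gene, summits over 5000 bases from protein-coding spans, merged intervals and the list without Airn. Software was Python 3.11.15 with pandas 2.3.3, numpy 2.4.6, matplotlib 3.10.9 and scipy 1.17.1.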

Additional observations from a re-analysis of the deposited data

How the results depend on the processing

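Of 55 values compared under the alternatives, 6 medians or shares moved by more than their counting interval. The other medians and shares moved by less, and the counts stayed within 1.5 times those of all members. With a −log10 q of at least 5, the median fold was 6.84, the median width 337 bases, the median fragment number 17 and the share at 10-fold or more 18.5%, against 6.16, 312, 14 and 14.6% in all members. With a fold of at least 4 the median fold was 6.39. Both settings remove weak peaks by definition, and the cause of each shift was not tested. With only summits over 5000 bases from protein-coding spans, 19.4% lay within 1000 bases of an end of the lncRNA span, against 28.3% in all members, and the cause was not tested. The number of members ran from 904 (2.43% of autosomal peaks, with only summits over 5000 bases away) to 1197 (3.22%), and that of genes from 554 to 764. Merging same intervals changed nothing, since no interval occurs more than once. The share near protein-coding spans has no value where those summits were removed. Depth limits single peaks, and 65.6% of members rest on fewer than 20 fragments. No paired analysis was possible because each group has 1 library.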

Other observations

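On the sex chromosomes, which the choice of members leaves out, 39 summits on X and 3 on Y lay in lncRNA spans and in no protein-coding span. All 3 on Y lay in LOC108168645, with 19 to 30 fragments, and whether these reads came from Y was not tested. The folds of all these summits ran from 1.80 to 20.9 with a median of 6.84. The lowest fold, and the most fragments, 231 at 4.39-fold, were at summits in the spans of both Tsix and Xist. The highest fold was in Gm38561, with 74 fragments at 20.9-fold. AW822252 held several wide peaks, the highest with 37 fragments at 17.9-fold (95% interval 12.7 to 24.5). Firre, an RNA that shapes nuclear organisation, had 31 fragments at 7.83-fold (5.40 to 11.0).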
